A study of Mus musculus with 12 samples.

Results

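The synaptic vesicle release machinery was described through 32 genes, chosen by symbol for their known work in storing, docking, fusing and retrieving vesicles at nerve terminals. The choice was made with earlier results of these data known. All 32 were rows of both deposited count tables, each of which listed 55809 gene symbols. By role they were 8 vesicle proteins, 6 SNARE proteins and their recycling factors, 6 calcium sensors and clamps, 8 active zone and docking proteins, 2 priming factors of dense-core vesicles and 2 vesicle retrieval proteins.

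Neurotransmitter is held in small vesicles that are tethered by synapsins and carry synaptophysin, SV2 and synaptogyrin proteins in their membrane. When an action potential lets calcium in at the active zone, synaptotagmins bind the ion, and the vesicle SNARE protein VAMP zips together with SNAP25 and syntaxin in the plasma membrane so that the membranes fuse. Hypothalamic neurons use this machinery for fast transmitters and, with CAPS proteins, for dense-core vesicles that hold neuropeptides.

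The 12 libraries of sorted mouse cells formed 4 groups of 3. In the first experiment, cells from the hypothalamus of untreated Mc4r-Cre; Ai14 mice aged 4 weeks were sorted as TOM positive or TOM negative. Mc4r-Cre places Cre recombinase under the gene of the melanocortin 4 receptor, and Ai14 is a tdTomato reporter that stays on once Cre has acted, so that a labelled cell need not still express Mc4r. In the second experiment, Otp fl/fl; Ai14 mice aged 26 weeks had received an adeno-associated virus (AAV), and the paraventricular nucleus of the hypothalamus (PVH) was dissected 12 weeks after injection. The sort took TOM positive cells from mice given AAV-Cre, and GFP positive cells from mice given AAV-GFP. Both AAV groups carried the floxed allele of Otp, a homeobox gene of PVH neurons, together with the reporter. They differed in the virus and in the fluorescent protein used for sorting, which cannot be told apart, and the promoter of the viral construct is not given in the sources used here. The series set out to find regulators of Mc4r with the first experiment and to examine the molecular basis of weight gain with the second. Nothing in the labels ties libraries to animals, so p-values cover only the spread between libraries, which may be technical.

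Library totals ran from 13506018 to 27827853 counts. Mc4r had 63, 0 and 0 counts in TOM positive libraries 1, 2 and 3 and 0 counts in each TOM negative library. The counts of Otp were 12, 9 and 10 in AAV-Cre libraries against 91, 102 and 38 in AAV-GFP libraries, taken over all its exons and so including any outside the floxed part. The summed share of counts of 20 neuron markers was 0.0722% to 0.0941% in TOM positive, 0.0174% to 0.027% in TOM negative, 0.295% to 0.343% in AAV-Cre and 0.218% to 0.334% in AAV-GFP libraries. Markers of oligodendrocytes took a larger share in every library, at 9.16% to 10.2%, 1.81% to 2.36%, 5.36% to 6.51% and 1.42% to 4.79% in the same order of groups. In bulk samples such as these, fewer cells of a type and less RNA per cell cannot be told apart.

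Libraries of a group could differ widely on the release genes. In AAV-GFP library 2, 7 members (Syn2, Rims1, Unc13a, Pclo, Cadps, Cadps2 and Dnm1) were over 2 times their value in both other AAV-GFP libraries, and Snap25 was more than 2 times lower than in both. In TOM positive library 2, 8 members (Sv2b, Syngr3, Napb, Syt1, Rims1, Unc13a, Bsn and Cadps) were more than 2 times lower than in both other TOM positive libraries, and 4 members had no count. TOM positive library 1 (6 members) and TOM negative library 3 (7 members) also held values over 2 times those of both others, none above 9.17 CPM in the latter. TOM negative library 1 did so for 5 members (Syngr3, Snap25, Napb, Cplx1 and Cadps), with Syngr3 at 22.4 CPM and Snap25 at 13.4 CPM. The members named for AAV-GFP library 2 and TOM positive library 2 are given with and without that library.

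Levels were compared between genes as TPM, which scales counts by exon length and by library, and between groups as CPM, which scales them by library alone. Vamp2, the main VAMP of central synapses, had the highest mean of the 32 in all 4 groups, at 455 ± 97.7 TPM (SD, n = 3) in TOM positive, 127 ± 9.85 in TOM negative, 328 ± 58.3 in AAV-Cre and 283 ± 97.7 in AAV-GFP libraries. Rab3a, a small GTPase that brings vesicles to the release site, followed in TOM positive libraries at 222 ± 37.6 TPM, with no overlap with Vamp2 above it or with Sv2a below it at 120 ± 27.6 TPM. In TOM negative libraries Syngr1 came next to Vamp2 at 82.3 ± 12.3 TPM, and its range overlapped that of Rab3a at 74.3 ± 3.65 TPM. In AAV-Cre libraries Syngr3 (322 ± 30.9 TPM) and Vamp2 overlapped, and in AAV-GFP libraries Rab3a (258 ± 16 TPM) and Vamp2 did.

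At the other end of the order stood Syt2 in the TOM groups and Sv2c in the AAV groups. Syt2, a fast calcium sensor best known from hindbrain and neuromuscular synapses, averaged 0.0428 TPM in TOM positive libraries and had no count in TOM negative ones. Sv2c, the SV2 form with the narrowest distribution in the brain, had the lowest mean in both AAV groups, at 0.0933 TPM after AAV-Cre and 0.249 TPM after AAV-GFP. Its range overlapped that of Syt2 in both, and the Syt2 mean after AAV-Cre came mainly from library 1, at 1.55 TPM.

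Promoter windows from RefSeq (build GRCm38.p6) were matched for 26 of the 32 members, in 35 windows, and not for Syngr3, Snap25, Vamp2, Syt4, Syt5 and Rims2. They are shown for 3 members that were higher in TOM positive libraries (Syn1, Vamp1, Cplx1) and for Syngr1, the member that was lower. Each is the 250 bases before the start site, 5′ to 3′ on the strand of the gene, and capitals mark the motif matches described after them. The windows lie at chrX:20920919-20921168 on the minus strand (Syn1), chr6:125215331-125215580 on the plus strand (Vamp1), chr5:108550028-108550277 on the minus strand (Cplx1) and chr15:80091084-80091333 on the plus strand (Syngr1).
Syn1: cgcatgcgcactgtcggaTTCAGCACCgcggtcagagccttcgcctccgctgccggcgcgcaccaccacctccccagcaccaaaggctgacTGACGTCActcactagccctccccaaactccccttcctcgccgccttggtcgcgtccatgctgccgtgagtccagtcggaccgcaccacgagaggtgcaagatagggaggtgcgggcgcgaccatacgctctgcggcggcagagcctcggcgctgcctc
Vamp1: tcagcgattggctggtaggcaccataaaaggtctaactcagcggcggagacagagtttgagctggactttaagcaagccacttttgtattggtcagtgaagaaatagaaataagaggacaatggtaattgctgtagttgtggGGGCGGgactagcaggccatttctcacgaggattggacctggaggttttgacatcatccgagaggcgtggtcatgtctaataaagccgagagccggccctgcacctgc
Cplx1: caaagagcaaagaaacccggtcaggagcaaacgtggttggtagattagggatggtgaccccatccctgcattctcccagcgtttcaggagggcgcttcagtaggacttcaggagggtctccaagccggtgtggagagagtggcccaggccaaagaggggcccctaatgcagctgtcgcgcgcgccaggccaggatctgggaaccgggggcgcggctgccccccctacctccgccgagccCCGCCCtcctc
Syngr1: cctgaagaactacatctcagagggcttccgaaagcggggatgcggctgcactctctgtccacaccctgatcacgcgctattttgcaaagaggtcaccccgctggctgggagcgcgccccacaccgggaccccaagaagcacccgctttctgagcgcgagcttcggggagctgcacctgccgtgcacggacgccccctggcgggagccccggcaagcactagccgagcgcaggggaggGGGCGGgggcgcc

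Both strands of these windows were searched for 4 motifs. The GC box GGGCGG was found in 18 of 35 member windows (51.4%) against 32.7% of all 32851 windows of the same length. Of the sequences printed, Vamp1 and Syngr1 hold it on the strand of the gene, and Cplx1 on the other strand, where it reads CCGCCC. Syn1 holds the cAMP response element TGACGTCA, present in 1.55% of all windows, and TTCAGCACC, the left part of the RE1 element that the neuronal repressor REST binds, present in 0.301%. The TATA box TATAAA was found in 2 member windows, both of Sv2b, against 12.4% of all windows. These are letter matches, with no measurement of binding.

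In the comparison of TOM positive with TOM negative cells, most of the release genes had higher estimates in TOM positive libraries and Syngr1 was lower. Of 32 members, 30 passed the filter on low counts and were tested, and 13 were higher and 1 lower at an adjusted p under 0.05 (edgeR's quasi-likelihood test, Benjamini-Hochberg over all genes tested). Those 13 are 43.3% of the tested members, beside 10.4% of all genes tested that were called higher and 13.4% that were called lower. Members were chosen with earlier results of these data known, which limits what this contrast can show. Estimates lay above 0 for 28 of the 30, with a median log2 fold change of 1.68 beside -0.02 over all genes. The 3 TOM positive libraries were all above the 3 TOM negative ones for 16 members and all below them for 1, against 20.8% and 25.6% of all genes.

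The number of calls varied with the libraries that entered. Syn1, Syngr1, Snap25, Vamp1, Vamp2 and Syt4 passed in each of the 6 fits with 1 library left out. Between 5 and 12 members were higher in those fits, the lowest number being without TOM negative library 2 and the highest without TOM positive library 2, and Syngr1 was the 1 lower member in each. Neuron markers moved the same way, with 8 of 19 tested higher, and so did oligodendrocyte markers, with 12 of 13 higher. The markers of microglia (11 of 11) and red blood cells (5 of 5) were lower. The part of these cell types in the release gene differences was not tested.

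**Figure D1:**
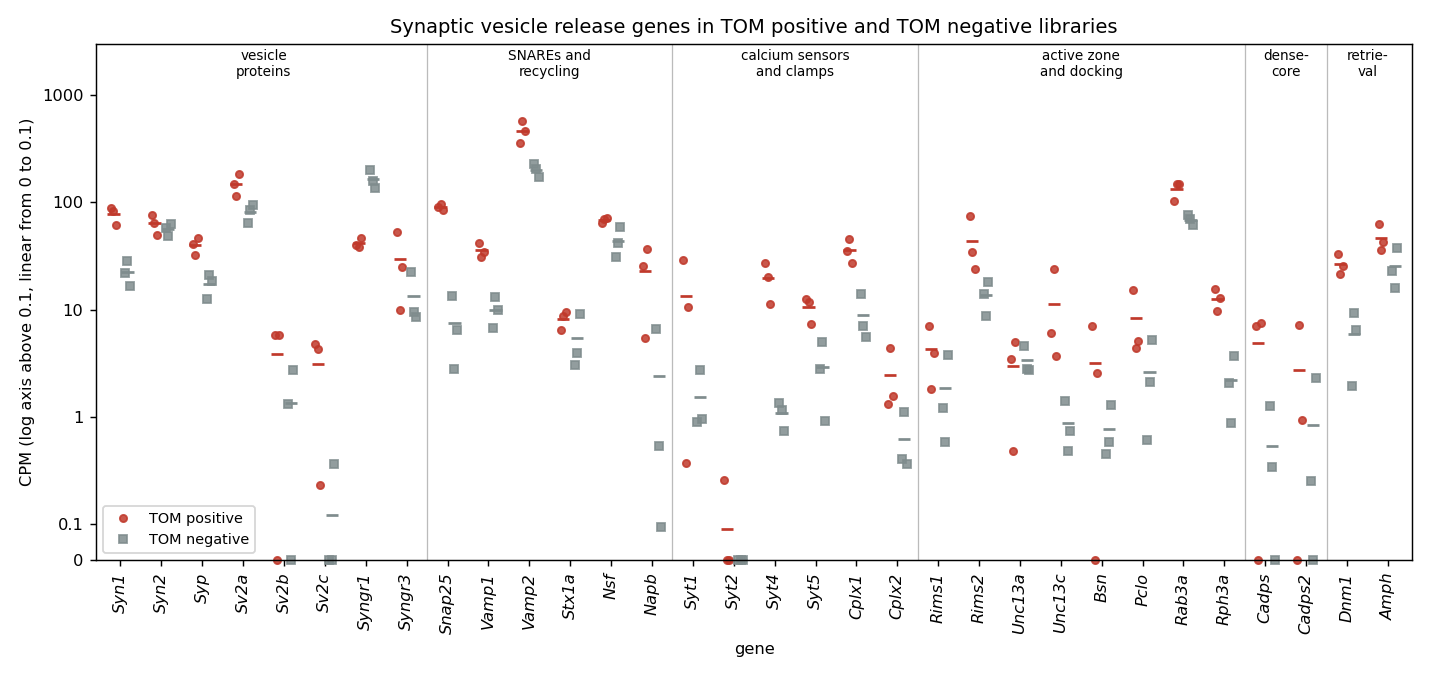
CPM (log axis above 0.1 and linear below) of the 32 release genes in each TOM positive (circles) and TOM negative (squares) library, with bars at group means, ordered by role. TOM positive libraries lie above all TOM negative ones for 16 members and below them for Syngr1 alone.

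Among the vesicle proteins, 3 of 7 tested were higher and 1 was lower. Syn1, the synapsin that tethers vesicles to the actin cytoskeleton (chrX:20726750-20787243 in the GENCODE vM30 annotation of the count files), had 88.6, 83.2 and 62 CPM in TOM positive libraries 1, 2 and 3 and 22.2, 28.5 and 16.6 CPM in TOM negative libraries. The groups did not overlap, and Syn1 was 3.47-fold higher (log2 1.80 ± 0.28 SE, adjusted p 0.0048). Its paralog Syn2 had 76.7, 64.5 and 50.1 CPM against 57.7, 48.5 and 63.5 CPM. The Syn2 groups overlapped and the difference did not pass (log2 0.17 ± 0.23, adjusted p 0.637).

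Syngr1, a synaptogyrin of the vesicle membrane (chr15:79975535-80003702), had 39.9, 38.6 and 46.1 CPM in TOM positive and 202, 158 and 137 CPM in TOM negative libraries. Each TOM negative library was far above each TOM positive one, and Syngr1 fell by 1.99 ± 0.20 on the log2 scale (adjusted p 0.00094). Syngr3, the other synaptogyrin among the 32 members, had 53.4, 10 and 25 CPM against 22.4, 9.49 and 8.53 CPM, and its groups overlapped (adjusted p 0.272). Without TOM positive library 2 its log2 fold change went from 1.13 to 1.54 (adjusted p 0.0912). Without TOM positive library 1, the highest, it went to 0.377 (adjusted p 0.735).

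Syp (synaptophysin), the standard vesicle marker, had 41.1, 32.4 and 46.4 CPM in TOM positive and 12.6, 21.1 and 18.7 CPM in TOM negative libraries. Its groups were separate and Syp was 2.29-fold higher (log2 1.20 ± 0.31, adjusted p 0.0294). Sv2a, the ubiquitous SV2 form and the target of levetiracetam, had 149, 115 and 183 CPM against 64.7, 84.8 and 94.1 CPM. The Sv2a groups were also separate, and it was 1.84-fold higher (log2 0.88 ± 0.23, adjusted p 0.0322). Both calls rest on all libraries: Syp and Sv2a passed without TOM positive library 2 and in none of the other 5 such fits, where the adjusted p reached 0.0893 for Syp and 0.104 for Sv2a. Of the exon bases of Syp, 16.8% are shared with Gm14703 on the opposite strand.

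The other SV2 forms were sparse. Sv2b ran from 0 to 5.86 CPM in TOM positive and from 0 to 2.75 CPM in TOM negative libraries, and its log2 fold change of 1.52 ± 2.02 was 2.10 without TOM positive library 2 (adjusted p 0.638 and 0.365). Sv2c was not tested, with 94, 127 and 7 counts in TOM positive libraries and 0, 0 and 8 in TOM negative ones.

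Of the SNARE proteins and their recycling factors, 3 of 6 were higher. Snap25, the plasma membrane SNARE (chr2:136555373-136624348), had 90.1, 96.8 and 84.9 CPM in TOM positive and 13.4, 2.81 and 6.46 CPM in TOM negative libraries. The TOM positive values were close to each other and all above the TOM negative ones, and Snap25 was 12-fold higher (log2 3.59 ± 0.54, adjusted p 0.0044). Its log2 fold change ran from 3.19 to 4.28 with 1 library left out, the highest being without TOM negative library 1. Vamp2 (chr11:68979316-68983210) had 358, 575 and 466 CPM against 229, 205 and 173 CPM. Its groups did not overlap, and it was 2.3-fold higher (log2 1.20 ± 0.21, adjusted p 0.0077).

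Vamp1, the VAMP that predominates in spinal cord and brainstem (chr6:125192514-125222927), had 41.7, 31.3 and 34.7 CPM in TOM positive and 6.74, 13.2 and 9.95 CPM in TOM negative libraries. It was 3.61-fold higher with separate groups (log2 1.85 ± 0.35, adjusted p 0.0105). Nsf, the ATPase that takes SNARE complexes apart, had 64.2, 69.3 and 72.1 CPM against 30.8, 41.6 and 59.5 CPM. The Nsf groups did not overlap, yet the difference did not pass (log2 0.64 ± 0.27, adjusted p 0.132).

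Stx1a, a neuronal syntaxin, ran from 6.52 to 9.42 CPM in TOM positive and from 3.02 to 9.17 CPM in TOM negative libraries, with an adjusted p of 0.527. Napb, the brain form of the adaptor that brings NSF to SNARE complexes, had 25.7, 5.45 and 36.8 CPM against 6.59, 0.533 and 0.0917 CPM. A single TOM negative library reached above TOM positive library 2, and Napb did not pass (log2 3.24 ± 1.41, adjusted p 0.144). It passed without TOM negative library 1 (log2 6.16, adjusted p 0.0329) and not without TOM positive library 2 (log2 3.70, adjusted p 0.0987).

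Of the calcium sensors and clamps, 2 of 5 tested were higher. Syt4, a synaptotagmin known from dense-core vesicles of neuroendocrine cells, had 27.2, 20.2 and 11.4 CPM in TOM positive and 1.36, 1.16 and 0.733 CPM in TOM negative libraries. The lowest TOM positive library was well above the highest TOM negative one, and Syt4 was 18-fold higher (log2 4.17 ± 0.58, adjusted p 0.0031). Of its exon bases, 14.5% are shared with Gm26658 on the opposite strand.

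Cplx1, a complexin that clamps and then aids fusion (chr5:108666420-108697890), had 35.5, 45.9 and 27.3 CPM in TOM positive and 14.1, 7.02 and 5.55 CPM in TOM negative libraries. Cplx1 was 4.07-fold higher with separate groups (log2 2.03 ± 0.45, adjusted p 0.0173). It did not pass without TOM negative library 2 or 3, where the adjusted p reached 0.0785. Cplx2, its paralog, had 1.33, 4.43 and 1.56 CPM against 0.402, 1.11 and 0.367 CPM, separate but not passing (adjusted p 0.193).

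Syt1, the sensor for fast synchronous release in the forebrain, had 28.8, 0.375 and 10.7 CPM in TOM positive and 0.905, 2.76 and 0.963 CPM in TOM negative libraries. TOM positive library 2 lay below every TOM negative library, while libraries 1 and 3 lay above all of them. The fit on all libraries did not pass (log2 3.10 ± 1.32, adjusted p 0.137), and the fit without TOM positive library 2 did (log2 3.67, adjusted p 0.0175). Without TOM positive library 1, the highest, the estimate was lower and did not pass (log2 1.85, adjusted p 0.404).

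Syt5 had 12.5, 11.9 and 7.39 CPM against 2.77, 4.99 and 0.917 CPM. These groups were separate, and the adjusted p was 0.108. Syt2 was not tested, with 5, 0 and 0 counts in TOM positive libraries and none in TOM negative ones, where a count of 0 allows up to 3 counts.

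Of the active zone and docking genes, 4 of 8 were higher. Unc13c, a Munc13 priming factor, had 6.11, 23.8 and 3.73 CPM in TOM positive and 1.41, 0.484 and 0.733 CPM in TOM negative libraries. All TOM positive libraries were above, though they differed among themselves, and Unc13c was 12.7-fold higher (log2 3.67 ± 0.95, adjusted p 0.0293). Without TOM positive library 2 its log2 fold change was 2.48 and did not pass (adjusted p 0.0918). The call was also lost without any 1 TOM negative library, with an adjusted p of up to 0.111. Unc13a, the main Munc13 of excitatory synapses, had 3.49, 0.477 and 4.99 CPM against 4.58, 2.81 and 2.75 CPM, with overlapping groups and an estimate near 0 (log2 -0.18 ± 0.94, and 0.33 without TOM positive library 2).

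Rab3a (chr8:71207328-71211323) had 104, 148 and 147 CPM in TOM positive and 76.1, 69.3 and 61.6 CPM in TOM negative libraries. Its groups were separate with a small fold of 1.93 (log2 0.95 ± 0.20, adjusted p 0.0145), and the call was lost without TOM positive library 3 or TOM negative library 2 or 3 (adjusted p up to 0.069). Rph3a, the rabphilin that binds Rab3 on vesicles, had 15.6, 9.64 and 12.8 CPM against 2.06, 0.871 and 3.71 CPM. It was 5.7-fold higher without overlap (log2 2.51 ± 0.68, adjusted p 0.034), and passed without TOM positive library 2 or TOM negative library 3 but in none of the other 4 such fits (adjusted p up to 0.101).

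Rims2, a RIM scaffold that links Rab3, Munc13 and calcium channels, had 74, 34.4 and 24 CPM in TOM positive and 14.1, 8.76 and 18.3 CPM in TOM negative libraries. The groups were separate and Rims2 was 3.21-fold higher (log2 1.68 ± 0.50, adjusted p 0.0466). It passed without TOM positive library 3 and in none of the other 5 such fits (adjusted p up to 0.157), and its log2 fold change was 1.09 without TOM positive library 1. Rims1 ran from 1.84 to 6.98 CPM against 0.581 to 3.76 CPM (adjusted p 0.425). Its log2 fold change went from 1.20 to 1.56 without TOM positive library 2 (adjusted p 0.297) and to 0.646 without TOM positive library 1 (adjusted p 0.74). The giant scaffolds Bsn (bassoon) and Pclo (piccolo) had overlapping groups with an adjusted p of 0.435 and 0.261. For Bsn the log2 fold change went from 2.04 to 2.62 without TOM positive library 2 (adjusted p 0.0976). Without TOM positive library 1, where both were highest, it went to 0.743 for Bsn (adjusted p 0.831). For Pclo it went from 1.64 to 0.834 without that library (adjusted p 0.628).

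Neither of the genes for CAPS proteins, which prime dense-core vesicles, passed. Cadps had 7.03, 0 and 7.59 CPM in TOM positive and 1.26, 0.339 and 0 CPM in TOM negative libraries. Cadps2 had 0, 7.19 and 0.932 CPM against 0.252, 0 and 2.29 CPM. The TOM positive library without a count of Cadps was the one with the most Cadps2, and the SE of both estimates was 2.11. Without that library the log2 fold change of Cadps went from 3.19 to 3.77 (adjusted p 0.114) and that of Cadps2 from 1.67 to -0.84.

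Of the vesicle retrieval genes, Dnm1, the neuronal dynamin that severs endocytic necks (chr2:32198483-32243350), had 33, 21.4 and 25.5 CPM in TOM positive and 1.96, 9.34 and 6.42 CPM in TOM negative libraries. It was 4.5-fold higher with separate groups (log2 2.17 ± 0.59, adjusted p 0.0352). The call held without TOM positive library 2 or TOM negative library 1 and was lost in the other 4 such fits (adjusted p up to 0.0928). Amph (amphiphysin), which recruits dynamin, had 62.3, 35.8 and 42.4 CPM against 22.9, 15.8 and 37.4 CPM, overlapping in 1 pair of libraries (adjusted p 0.144).

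**Figure D2:**
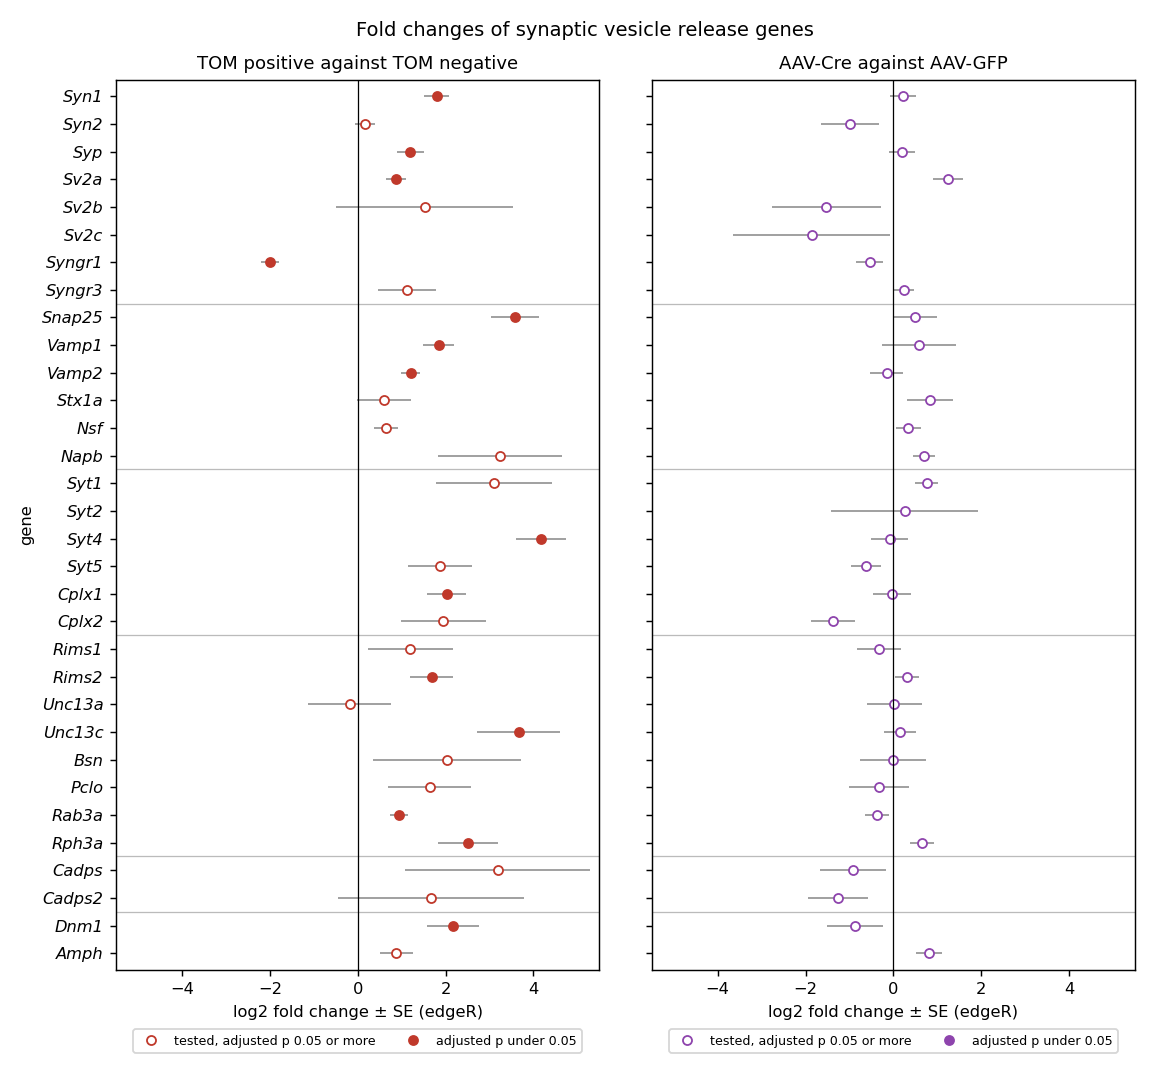
Log2 fold change ± SE (edgeR) of each release gene for TOM positive against TOM negative (left) and AAV-Cre against AAV-GFP (right), filled where the adjusted p was under 0.05. On the left 13 genes are filled above 0 and Syngr1 is filled at -1.99, and on the right none is filled.

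Summed over the 32 members, release genes took 0.158% to 0.165% of counts in TOM positive and 0.067% to 0.0728% in TOM negative libraries. In the AAV experiment the range was 0.322% to 0.388% in AAV-Cre and 0.234% to 0.381% in AAV-GFP libraries. The TOM groups were thus separate on the summed level, and the AAV groups overlapped.

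**Figure D3:**
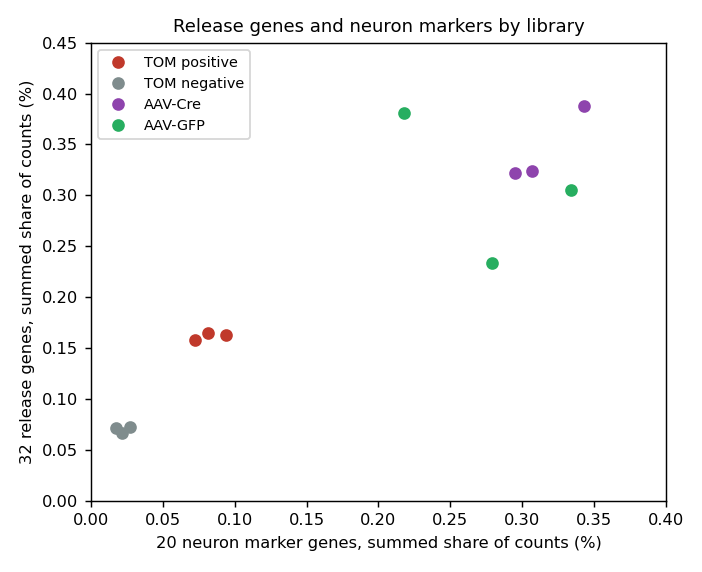
Summed share of counts (%) of the 32 release genes (vertical) against that of 20 neuron marker genes (horizontal), 1 point per library. TOM positive libraries lie at 0.158% to 0.165% and TOM negative libraries at 0.067% to 0.0728% on the vertical axis, and AAV-GFP library 2 has 0.381% release genes at 0.218% neuron markers.

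To set the members beside the neuronal mRNA of each library, their counts were also expressed per 100 counts of the neuron markers, as a description without a test. On that scale 3 members were higher in all TOM positive libraries (Snap25, Syt4, Unc13c), 4 were lower in all (Syn2, Syngr1, Unc13a, Rab3a) and 25 overlapped. Of all genes tested, 1.83% were higher in all TOM positive libraries on this scale and 62.0% lower in all. Snap25 stood at 10.5, 13 and 12.7 per 100 neuron marker counts in TOM positive and 4.41, 1.16 and 3.52 in TOM negative libraries. Syngr1 stood at 4.66, 5.2 and 6.9 against 66.6, 65.2 and 74.5. Rab3a, which was higher in CPM, was lower on this scale, at 12.2, 19.9 and 21.9 against 25.1, 28.6 and 33.6.

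Comparing AAV-Cre with AAV-GFP cells, no release gene passed the test. All 32 members were tested with edgeR's quasi-likelihood test, and 0 were higher and 0 lower at an adjusted p under 0.05, beside 0.63% of all genes called higher and 1.97% called lower. At an unadjusted p under 0.05 there were 6 members, which is 18.8% of them and equals the 18.8% of all genes, and DESeq2 called 1 member, Sv2a. Estimates were above 0 for 16 members and below 0 for 16, with a median log2 fold change of 0.0041 beside -0.16 over all genes. The AAV-Cre libraries were all above the AAV-GFP libraries for 6 members and all below for 2, against 9.85% and 18.6% of all genes. Of 20 neuron markers 0 were called, with a median log2 fold change of -0.15, and of 10 astrocyte markers 0. Markers of oligodendrocytes (4 of 13), their precursors (1 of 8) and microglia (1 of 11) were higher after AAV-Cre. Markers of ependymal cells (3 of 7), red blood cells (2 of 5), endothelium (1 of 7) and mural cells (1 of 8) were lower. The part of these cell types was not tested.

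**Figure D4:**
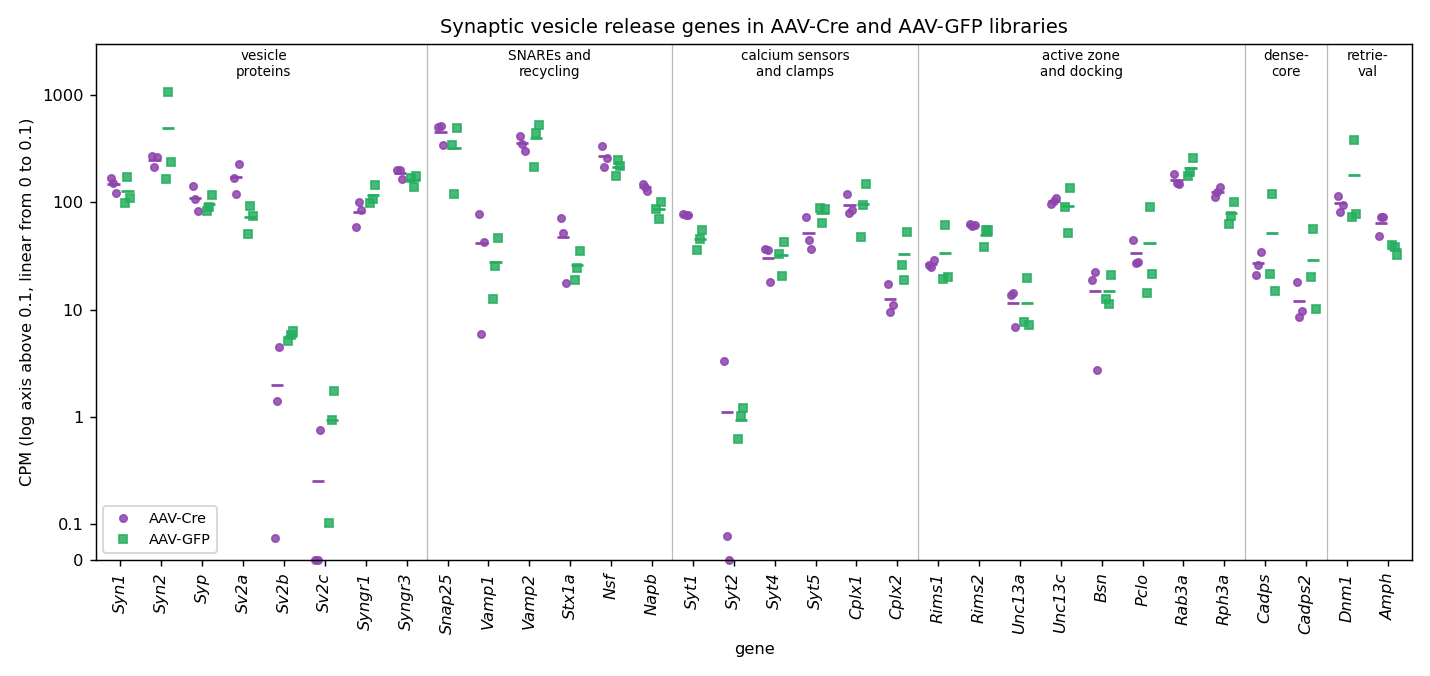
CPM (log axis above 0.1 and linear below) of the 32 release genes in each AAV-Cre (circles) and AAV-GFP (squares) library, with bars at group means, ordered by role. The groups are separate for 8 members, and Syn2 reaches 1080 CPM in AAV-GFP library 2.

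Among the vesicle proteins, Sv2a had 168, 121 and 226 CPM after AAV-Cre and 50.9, 92.1 and 74.9 CPM after AAV-GFP. All AAV-Cre libraries were above, and the estimate of 2.37-fold (log2 1.24 ± 0.35) had an adjusted p of 0.102, which lay between 0.0304 (DESeq2) and 0.305 (with the replicate number as a block) in the other settings. Sv2b had 0.0623, 1.42 and 4.47 CPM against 5.12, 5.8 and 6.26 CPM, all below, with a wide error (log2 -1.53 ± 1.25, adjusted p 0.577).

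Syn2 had 273, 213 and 266 CPM after AAV-Cre and 167, 1080 and 240 CPM after AAV-GFP. Library 2 alone held the high value, and the log2 fold change of -0.98 ± 0.66 became 0.29 without it. Syn1 ran from 122 to 168 CPM against 98.8 to 171 CPM, Syp from 83.7 to 141 against 82.8 to 117, Syngr1 from 58.5 to 100 against 98 to 146 and Syngr3 from 166 to 202 against 140 to 178, all overlapping. Sv2c had 0, 0 and 11 counts against 2, 13 and 25 counts.

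Of the SNARE proteins and recycling factors, Napb had 150, 139 and 129 CPM after AAV-Cre and 87.5, 70 and 101 CPM after AAV-GFP. These groups were separate (log2 0.69 ± 0.26, adjusted p 0.202). Snap25 had 502, 515 and 340 CPM against 345, 121 and 496 CPM, overlapping, and its log2 fold change moved from 0.50 to 0.094 without AAV-GFP library 2, where it was lowest. Vamp1 differed widely within groups, at 77.8, 5.97 and 42.3 CPM against 12.5, 25.6 and 46.2 CPM. Vamp2 ran from 300 to 419 CPM against 216 to 531 CPM, Stx1a from 17.8 to 71.8 against 19.1 to 35.6 and Nsf from 215 to 333 against 175 to 246, each overlapping.

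Of the calcium sensors and clamps, Syt1 had 77.9, 76.4 and 75.7 CPM after AAV-Cre and 35.9, 45.2 and 55.2 CPM after AAV-GFP. The AAV-Cre values were close together and all above, with an adjusted p of 0.189 (log2 0.76 ± 0.27). Cplx2 had 17.4, 9.5 and 11 CPM against 26.3, 19.1 and 52.8 CPM. It was below in all AAV-Cre libraries, with an adjusted p of 0.203 (log2 -1.37 ± 0.51). Syt4 ran from 18.1 to 36.8 CPM against 20.4 to 43.2 CPM, Syt5 from 37 to 72.9 against 63.9 to 88 and Cplx1 from 79.6 to 121 against 47.8 to 149, with overlap in each. Syt2 had 53, 1 and 0 counts against 12, 14 and 17 counts.

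Of the active zone and docking genes, Rph3a had 112, 125 and 139 CPM after AAV-Cre and 63.3, 74.9 and 100 CPM after AAV-GFP. Rims2 had 63.1, 60.2 and 61.6 CPM against 38.2, 55.8 and 55.5 CPM. Both were above in all AAV-Cre libraries without passing (adjusted p 0.253 for Rph3a and 0.612 for Rims2). Unc13c ran from 97.3 to 110 CPM against 51.5 to 135 CPM, Unc13a from 6.94 to 14.3 against 7.18 to 19.6 (log2 0.020, and 0.63 without AAV-GFP library 2), Bsn from 2.75 to 22.6 against 11.2 to 21 and Rab3a from 149 to 183 against 175 to 261, each overlapping.

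The 2 large scaffolds Rims1 and Pclo were high in AAV-GFP library 2 only. Rims1 had 26.2, 25.2 and 29.1 CPM against 19.3, 61.1 and 20.3 CPM, and its log2 fold change went from -0.32 to 0.43 without that library. Pclo had 44.7, 27.5 and 28 CPM against 14.3, 90.6 and 21.3 CPM, and went from -0.33 to 0.90.

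AAV-GFP library 2 was also the highest library for Cadps, Cadps2 and Dnm1. Cadps had 21, 26.2 and 34.4 CPM after AAV-Cre and 21.3, 119 and 14.9 CPM after AAV-GFP, and its log2 fold change went from -0.92 to 0.58 without AAV-GFP library 2. Cadps2 had 18, 8.62 and 9.69 CPM against 20.1, 56.9 and 10.1 CPM, and went from -1.26 to -0.33. Dnm1 had 116, 81.7 and 95.2 CPM against 73.7, 385 and 78 CPM, and went from -0.87 to 0.35. Amph, in contrast, had 48.2, 72.9 and 73.4 CPM against 39.7, 38.5 and 32.2 CPM, with separate groups and an adjusted p of 0.186 (log2 0.82 ± 0.29).

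Per 100 neuron marker counts, 4 members were higher in all AAV-Cre libraries (Sv2a, Napb, Syt1, Rph3a), 5 were lower in all (Sv2b, Syngr1, Syt5, Cplx2, Rab3a) and 23 overlapped. On the same scale 7.62% of all genes tested were higher in all and 18.2% lower in all. Sv2a stood at 5.2, 4.21 and 7.94 against 1.83, 4 and 1.98, and Cplx2 at 0.538, 0.33 and 0.386 against 0.946, 0.829 and 1.4. Rims2 and Amph, separate in CPM, overlapped on this scale.

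Shares within gene families, counted over the 32 members only, show how paralogs were mixed in a library, independent of its scaling. They were added after the values above were seen, with 12 shares compared per experiment and a two-sided exact permutation test in which 3 libraries against 3 cannot go below p = 0.1, which is 0.24 after Benjamini-Hochberg adjustment. No share could therefore pass. Syn2 made up 46.4%, 43.7% and 44.7% of synapsin counts in TOM positive libraries and 72.2%, 63% and 79.3% in TOM negative ones. Unc13a made up 36.4%, 1.97% and 57.3% of Unc13a and Unc13c counts in TOM positive and 76.5%, 85.3% and 78.9% in TOM negative libraries. Both shares were lower in every TOM positive library, and the same held for Syngr1 among synaptogyrins (62.3% ± 18.4 against 92.8% ± 2.44, SD, n = 3). The Sv2a share of SV2 counts was lower too (95.5% ± 1.89 against 98.3% ± 1.62), though the nearest libraries of both groups stood at 96.8%. Syt4 had the larger share of the 4 synaptotagmins in TOM positive libraries, at 46.8% ± 13.4 against 22.7% ± 8.38.

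After AAV-Cre, Syt1 made up 40.8%, 48.6% and 57.9% of the 4 synaptotagmins, against 22.8%, 34.6% and 29.8% after AAV-GFP, and Syt5 31.6% ± 5.7 against 50.4% ± 4.91. Cplx2 made up 12.6%, 10.7% and 11.6% of complexin counts against 35.5%, 16.8% and 26.1%. Sv2a made up 98.8% ± 1.11 of SV2 counts against 91.4% ± 1.56. Syngr1 made up 29.7% ± 6.3 of Syngr1 and Syngr3 counts against 41.9% ± 4.42, with Syngr2 left out. All 5 of these shares were separate between the AAV groups, which by itself sets the exact permutation p at its floor of 0.1. Syt1 and Syt5 are shares of the same sum, so they are not separate results. The shares of Vamp1, Syn2, Syt4, Rims1, Unc13a, Bsn and Cadps2 overlapped.

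**Figure D5:**
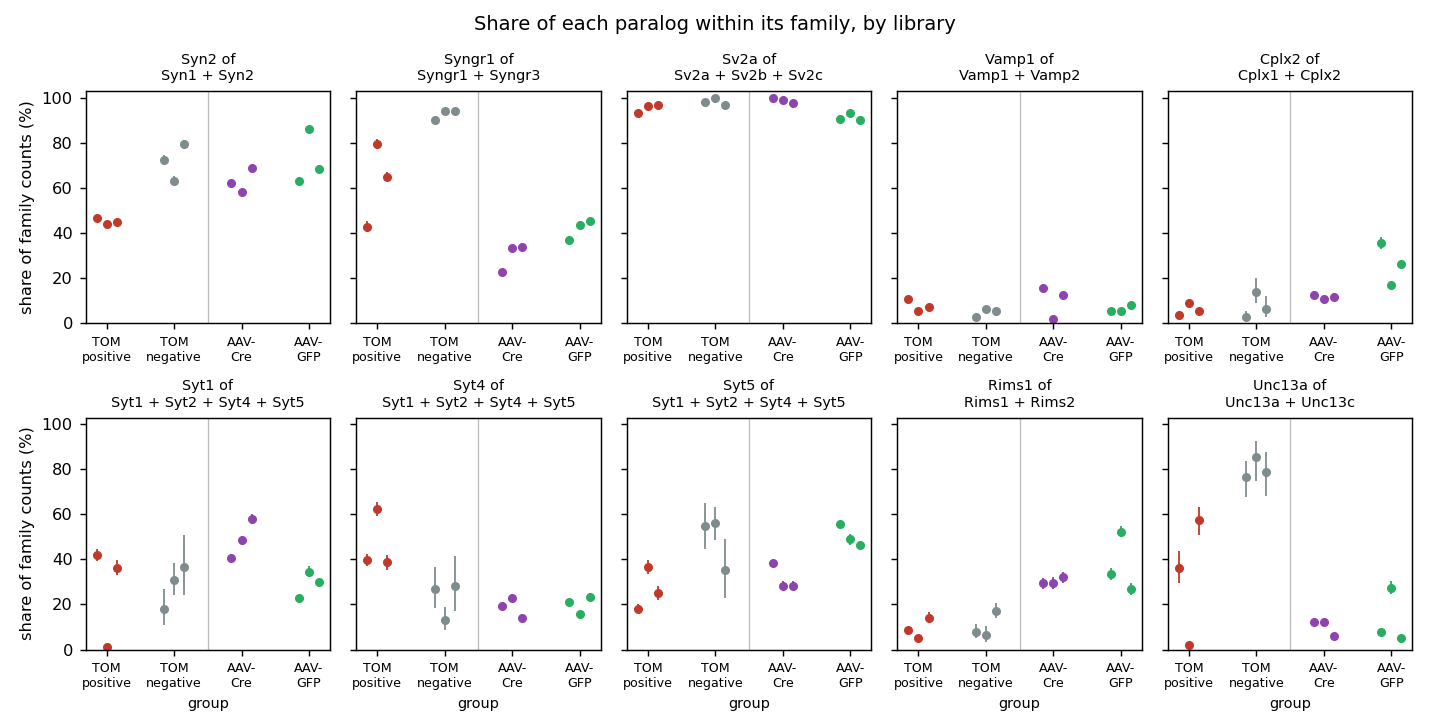
Share (%) of each named gene in the summed counts of its family among the 32 release genes, 1 point per library. Exact 95% binomial intervals cover counting error only. Syn2 lies at 43.7% to 46.4% in TOM positive and 63% to 79.3% in TOM negative libraries, and Syt1 is higher in all AAV-Cre than in all AAV-GFP libraries.

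Other genes of the presynaptic pathway, taken from 5 lists outside the 32 members, are described by their counts of calls. In TOM positive against TOM negative libraries, 11 of 60 tested were higher and 4 lower, with a median log2 fold change of 0.67, beside the 10.4% and 13.4% of all genes called in each direction. Among other vesicle proteins (2 of 10 higher, 1 lower), Synpr (synaptoporin) was higher at 77 ± 1.91 against 10.5 ± 1.48 CPM (log2 2.88 ± 0.23, adjusted p 0.00035), as was the proton pump subunit Atp6v1g2 (log2 1.85 ± 0.32, adjusted p 0.0071).

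Among other SNARE proteins and their regulators, 3 of 8 were higher, among them Stxbp6 at 47.5 ± 24.9 against 8.84 ± 3.96 CPM (log2 2.43 ± 0.51, adjusted p 0.0143). Of other synaptotagmins, 2 of 10 were higher and 1 lower. Syt11, which does not bind calcium, rose from 1080 ± 122 to 2550 ± 246 CPM (adjusted p 0.0016), Syt13 rose by 2.59 ± 0.52 and Syt12 fell by 0.93 ± 0.26 on the log2 scale.

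Of 16 other active zone and Rab3 genes, 0 were higher by edgeR (2 at an unadjusted p under 0.05, 3 with DESeq2) and 1 was lower. Over all genes tested, 36.4% had an unadjusted p under 0.05 in either direction. The liprin Ppfia4 was the lower one, at 6.48 ± 0.749 against 230 ± 49.5 CPM (log2 -5.15 ± 0.25, adjusted p 7.7e-05), and Rab3c (adjusted p 0.0522) and Rab3b (adjusted p 0.0613) came closest in the other direction. Of 16 other retrieval genes, 4 were higher and 1 lower. The endophilin Sh3gl3 (log2 2.01 ± 0.21) and the clathrin adaptor Snap91 (log2 2.76 ± 0.34) were higher, and the clathrin light chain Clta was lower (log2 -1.31 ± 0.21).

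Fusion and trafficking genes used in most cell types gave 5 higher and 3 lower of 25 tested, with a median of 0.26, beside the same 10.4% and 13.4%. Vamp8, the VAMP of endosomes and secretory cells, was lower at 17.2 ± 3.91 against 141 ± 27.6 CPM, and Syngr2, the non-neuronal synaptogyrin, was lower at 76.8 ± 14.6 against 379 ± 82.2 CPM. Stxbp3 was higher at 189 ± 20.9 against 60.4 ± 13.4 CPM. All 3 had an adjusted p of 0.0024 or less.

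In AAV-Cre against AAV-GFP libraries, 1 of 66 other presynaptic genes was higher and 0 lower by edgeR, beside 0.63% and 1.97% of all genes. At an unadjusted p under 0.05 there were 4 higher and 2 lower, beside 18.8% of all genes in either direction. With DESeq2 there were 3 higher and 2 lower. The 1 passing was Dnm3, a dynamin of neurons, at 101, 83.2 and 96 CPM against 35.9, 29 and 42.6 CPM (log2 1.38 ± 0.27, adjusted p 0.04968), a value just inside the threshold. With any 1 AAV-GFP library left out, 0 of all genes were called higher, Dnm3 included. The retrieval genes Cltc (clathrin heavy chain, adjusted p 0.0971) and Bin1 (adjusted p 0.101) were also above in all AAV-Cre libraries. Sncg (gamma-synuclein) had 0.374, 4.21 and 8.52 CPM against 67.8, 55.3 and 51 CPM (log2 -3.73 ± 0.91, adjusted p 0.0668), and Rab3b had 19.1, 19.2 and 25.6 against 46.3, 40.9 and 54 CPM (adjusted p 0.0925). Both were below in every AAV-Cre library and did not pass by edgeR. With DESeq2, 1 gene was lower in each of the lists that hold them.

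Other genes with the smallest p of each list in that comparison were Scamp5, Dnajc5, Stxbp5l, Cplx3, Syt11, Syt10, Syt7, Ppfia4 and Ppfia3, with adjusted p from 0.141 (Syt11) to 0.431 (Ppfia3). Syt11 had 1990, 2300 and 2150 CPM after AAV-Cre and 1260, 396 and 893 CPM after AAV-GFP, and these groups were separate. Of the 25 widely used genes, 0 passed by edgeR or DESeq2 and 2 had an unadjusted p under 0.05, beside 18.8% of all genes. Stxbp2 (adjusted p 0.158), Dnm2 (adjusted p 0.208) and Snap23 (adjusted p 0.338) had the smallest p.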

How the data were processed

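The authors deposited raw counts per gene symbol, as whole numbers without normalization. Per the submitters' processing notes the authors used FastQC, Trim Galore, STAR and featureCounts with mm10. In the AAV files, per the file headers, featureCounts 2.0.1 counted read pairs per gene name on GENCODE vM30, without strand. For the TOM table these settings were not given in the sources used here. Reads of overlapping genes on opposite strands cannot be told apart where strand was not used; 23 of 32 members share no exon base with another gene. No protocol describes molecular identifiers, so PCR copies count as reads and intervals cover counting error only.

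Both comparisons were made separately on 6 libraries each, using edgeR 4.0.16 under R 4.3.3 (TMM scaling, filterByExpr with a minimum count of 10, quasi-likelihood test, two-sided, Benjamini-Hochberg over all genes tested, threshold 0.05). CPM used TMM-scaled totals, and TPM the exon lengths in the AAV count files, for the TOM libraries as well. SE was derived from the F statistic. Samples were grouped by their titles. Alternatives were RLE factors, unscaled totals, no count filter, a replicate block, mitochondrial genes removed, DESeq2 1.42.0 and each library left out. The steps were tested on simulated data. Every member was reported; of each other pathway list, the 3 genes with the smallest p per comparison were named, except some that are not reported here. Members and lists were chosen with earlier results of these data known. File coordinates (vM30) and RefSeq windows (GRCm38.p6) are different builds and were not joined.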

Additional observations from a re-analysis of the deposited data

How the results depend on the processing

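In the TOM comparison 13 members were higher under RLE factors, unscaled totals, no count filter and removal of mitochondrial genes, 17 with DESeq2 (adding Napb, Sv2c, Syt1 and Syt5) and 5 to 12 with 1 library left out. The lower member stayed 1 in all settings run. With the replicate number as a block, 6 were higher. Same-numbered libraries did not deviate together (r from -0.0313 to 0.0246 in the TOM and -0.0702 to -0.0647 in the AAV comparison), so numbers are not taken as pairs; in neither experiment was every library closest to its own number. In the AAV comparison DESeq2 gave 1 higher member and every other setting run gave 0.

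Over all genes, unscaled totals moved the median log2 fold change by 0.26 (TOM) and 0.16 (AAV), and the TOM calls from 1589 higher and 2046 lower to 2204 and 1532. The block gave 899 and 1088 in TOM and 0 and 0 in AAV. TOM calls were 2491 and 2992 with DESeq2, 630 and 881 without TOM negative library 2, 974 higher without TOM positive library 1 and 1347 lower without TOM negative library 1. Without AAV-Cre library 1, 2 or 3 there were 47, 11 and 30 higher genes in AAV, and 111 lower without library 2. AAV calls of 97 and 303 became 583 and 1301 with DESeq2, 160 and 552 without the filter, 0 and 0 without AAV-GFP library 1 or 3, and 0 and 2 without library 2. Members above 0 in AAV numbered 16, 18 with RLE factors, 20 with unscaled totals, 15 with no filter, 17 with the block and 12 to 20 with 1 library left out (12 without AAV-Cre library 1, where the median was -0.25, and 20 without AAV-GFP library 2, where it was 0.29).

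Log2 fold changes that changed sign belonged to members that did not pass, and the cause was not tested. In TOM, Unc13a became 0.0842 with unscaled totals and Cadps2 -0.41 with the block. In AAV, unscaled totals gave Vamp2 0.0236, Syt4 0.0735, Cplx1 0.153 and Bsn 0.148. RLE factors gave Cplx1 0.0166 and Bsn 0.037, and DESeq2 gave 0.0283 and 0.0475. The block gave Syt2 -2.7, Cplx1 0.0701 and Pclo 0.135, and no filter gave Unc13a -0.000238. With 1 library left out, the estimate ran in TOM from -0.775 to 0.325 for Unc13a and from -0.844 to 4.36 for Cadps2. In AAV it ran from -1.3 to 0.29 for Syn2, -0.0193 to 0.441 for Syp, -0.226 to 1.23 for Vamp1, -0.391 to 0.197 for Vamp2, -4.5 to 0.828 for Syt2, -0.341 to 0.268 for Syt4 and -0.308 to 0.499 for Cplx1. It ran from -0.518 to 0.427 for Rims1, -0.163 to 0.632 for Unc13a, -0.146 to 0.616 for Unc13c, -0.458 to 0.473 for Bsn, -0.659 to 0.897 for Pclo, -1.28 to 0.576 for Cadps and -1.16 to 0.354 for Dnm1.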
